A study of Homo sapiens with 9 samples.

Results

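The genes described here encode the proteasome, its regulators and the factors that assemble it, in U2OS cells. They are the protein-coding genes whose symbol begins with PSMA, PSMB, PSMC, PSMD, PSME or PSMG and a number, together with PSMF1, ADRM1 and POMP. The rule found 52 of the 70116 gene IDs in the table of raw read counts, and 44 of the 52 had enough reads to be tested. It used no measured value. By subcomplex, the 52 comprise 7 genes of the 20S alpha ring, 7 of the constitutive 20S beta ring, 5 immunoproteasome or tissue-specific variants, 6 ATPases of the 19S base, 4 other subunits of the base, 8 subunits of the lid, 5 regulatory caps and inhibitors, 5 factors of 20S assembly and 3 chaperones of 19S assembly. The other 2, PSMC3IP and PSME3IP1, fit the spelling of the rule but encode interacting proteins, not subunits, and are given apart.

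U2OS is an established human osteosarcoma line with intact RB1, the protein through which palbociclib, an inhibitor of the kinases CDK4 and CDK6, halts the cell cycle. There were 3 groups of 3 libraries. PERK knockout cells, a CRISPR/Cas9 derivative of U2OS, were given palbociclib for 4 days, wild-type cells were given palbociclib for 4 days, and wild-type cells were given vehicle. PERK, the product of EIF2AK3, sits in the membrane of the endoplasmic reticulum and slows translation when unfolded proteins accumulate there. Whether the knockout is 1 clone is not given in the sources used here, and knockout cells on vehicle are not analysed here. Differences between the knockout and wild-type cells therefore include any difference between the derivative and its parent, with or without the drug.

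The 26S proteasome degrades proteins tagged with ubiquitin. Its barrel, the 20S core, holds the protein-cutting sites of the beta rings behind gated alpha rings, and the 19S particle on each end binds ubiquitin, removes it and feeds the unfolded chain inward with a ring of ATPases. In human cells the transcription factor NFE2L1 raises the genes of nearly all subunits together when proteasome activity falls, through antioxidant response elements in their promoters.

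Libraries held 33674039 to 42577874 counts, and the members took 0.587 to 0.695% of them. EIF2AK3 had 19.7, 18.7 and 17.8 CPM (reads of the gene as a share of its library, scaled by TMM factors) in knockout libraries, 35.7, 36.8 and 31.8 CPM in wild-type palbociclib libraries and 31.7, 34.8 and 32.8 CPM in vehicle libraries. The knockout libraries stood apart, at 53.9% of the wild-type level on palbociclib. Of 8 mesenchymal and osteoblast markers, SP7 was listed at 0 and BGLAP stayed under 1 CPM. The 8 summed to 7790 to 9560 CPM in knockout, 7500 to 8580 CPM in wild-type palbociclib and 5120 to 5490 CPM in vehicle libraries, mostly COL1A1 and SPARC; their part in the results below was not tested. The haematopoietic list of 4 summed to at most 0.809 CPM in any library, with CD3E listed at 0, and the endothelial list of 4 to at most 4.11 CPM. The epithelial list of 4 summed to 7.38 to 8.75 CPM in knockout, 11.2 to 11.3 CPM in wild-type palbociclib and 9.06 to 11.5 CPM in vehicle libraries. The labels number the libraries of each group as sets 1 to 3 without saying that they are separate cultures, so the p-values reflect a spread among libraries that may be technical only.

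Promoter windows of 300 bases, from 250 before to 50 after an annotated start, were found in RefSeq (GRCh38.p14) for 46 of the 52 members. Some genes had several windows, and a match in any of them counted. The core of the antioxidant response element, searched as TGACNNNGC on both strands, was present in 16 of the 46, or 34.8%, against 16.1% of the 27305 genes with a window. The members are all protein-coding, and those 27305 genes were not matched to them in gene type or number of windows. The same holds for the other elements below. The 4 windows below are shown because they hold that element in genes of 3 subcomplexes whose values follow: PSMA4 (an alpha subunit, chr15:78540536-78540835, plus strand), PSMD1 (a scaffold of the base, chr2:231056617-231056916, plus strand), PSMD12 (a lid subunit, chr17:67366528-67366827, minus strand) and PSMD3 (a lid subunit, chr17:39980557-39980856, plus strand). PSMA4 has 3 windows, and the first with a match is printed. It lies wholly downstream of the gene's start in GENCODE, at 78540405. Capitals mark each match, 5′ to 3′.
PSMA4: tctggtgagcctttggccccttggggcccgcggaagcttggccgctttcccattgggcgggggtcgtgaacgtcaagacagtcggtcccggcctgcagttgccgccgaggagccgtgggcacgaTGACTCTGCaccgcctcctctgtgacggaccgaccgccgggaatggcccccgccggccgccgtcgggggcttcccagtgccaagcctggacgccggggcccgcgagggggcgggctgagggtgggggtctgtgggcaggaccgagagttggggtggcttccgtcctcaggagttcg
PSMD1: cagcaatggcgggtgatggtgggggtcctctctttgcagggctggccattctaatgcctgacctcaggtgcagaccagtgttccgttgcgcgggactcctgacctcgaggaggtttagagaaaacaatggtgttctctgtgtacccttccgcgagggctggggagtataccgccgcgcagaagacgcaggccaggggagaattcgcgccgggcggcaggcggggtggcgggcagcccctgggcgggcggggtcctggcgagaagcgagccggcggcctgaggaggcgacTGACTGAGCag
PSMD12: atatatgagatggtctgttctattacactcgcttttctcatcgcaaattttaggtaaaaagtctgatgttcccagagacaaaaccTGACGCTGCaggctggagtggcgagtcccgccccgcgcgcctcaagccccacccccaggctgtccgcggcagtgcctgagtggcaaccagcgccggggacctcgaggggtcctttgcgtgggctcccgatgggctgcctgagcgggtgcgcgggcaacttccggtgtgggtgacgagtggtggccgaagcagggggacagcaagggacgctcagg
PSMD3: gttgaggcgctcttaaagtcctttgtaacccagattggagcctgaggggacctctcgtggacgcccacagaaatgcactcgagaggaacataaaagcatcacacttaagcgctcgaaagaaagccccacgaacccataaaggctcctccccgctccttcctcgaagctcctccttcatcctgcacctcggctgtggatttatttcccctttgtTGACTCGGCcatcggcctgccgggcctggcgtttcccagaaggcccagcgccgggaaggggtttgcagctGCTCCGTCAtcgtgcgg
PSMD3 holds 2 matches, the second on the opposite strand. PSMA4, PSMD1 and PSMD12 are 3 of the 9 genes with a match among the 23 members with a window that were lower on palbociclib, while PSMD3 is 1 of the 2 with a match among the 15 with a window that were tested and not called. The CCAAT box was present in 23 of the 46 members with a window, against 39.7% of all genes with one. An E2F element, TTTCGCGC or TTTGGCGC, was present in those of PSMD5 and PSMD9, or 4.35% of the members, against 1.4% of all genes with a window. A match is a description of these letters and not a measured site.

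Palbociclib against vehicle in wild-type cells asks what 4 days of the drug did to the transcripts of the proteasome. They were lower on palbociclib over most of the complex: 28 of 44 tested members fell and none rose (edgeR quasi-likelihood F test, Benjamini-Hochberg adjusted p under 0.05 over all 19408 tested genes). That is 63.6% of the members lower, against 22.3% of all tested genes, and 0 higher, against 21.3% (43.7% of all genes were called in either direction). The 28 include PSMC3IP, an interacting protein; without both interacting proteins 27 of 42 fell. With the library sets as a block in the model 33 of the 44 fell and 1 rose, against 26.0% lower and 24.3% higher among all genes. The median member was at a log2 fold change of −0.22, a decrease of 14.0%, against −0.02 for all genes, and 39 of 44 had a negative sign. In 31 of 44 every palbociclib library lay below every vehicle library, a pattern seen in 26.9% of all genes, and in 0 of 44 every palbociclib library lay above, against 24.7%. Summed over the 52 genes, the level was 6200, 6232 and 5897 CPM in wild-type palbociclib libraries against 6958, 6880 and 6717 CPM in vehicle libraries. Values are shares of each library's mRNA, so in such bulk samples fewer cells of a type and less RNA per cell cannot be told apart.

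**Figure D1:**
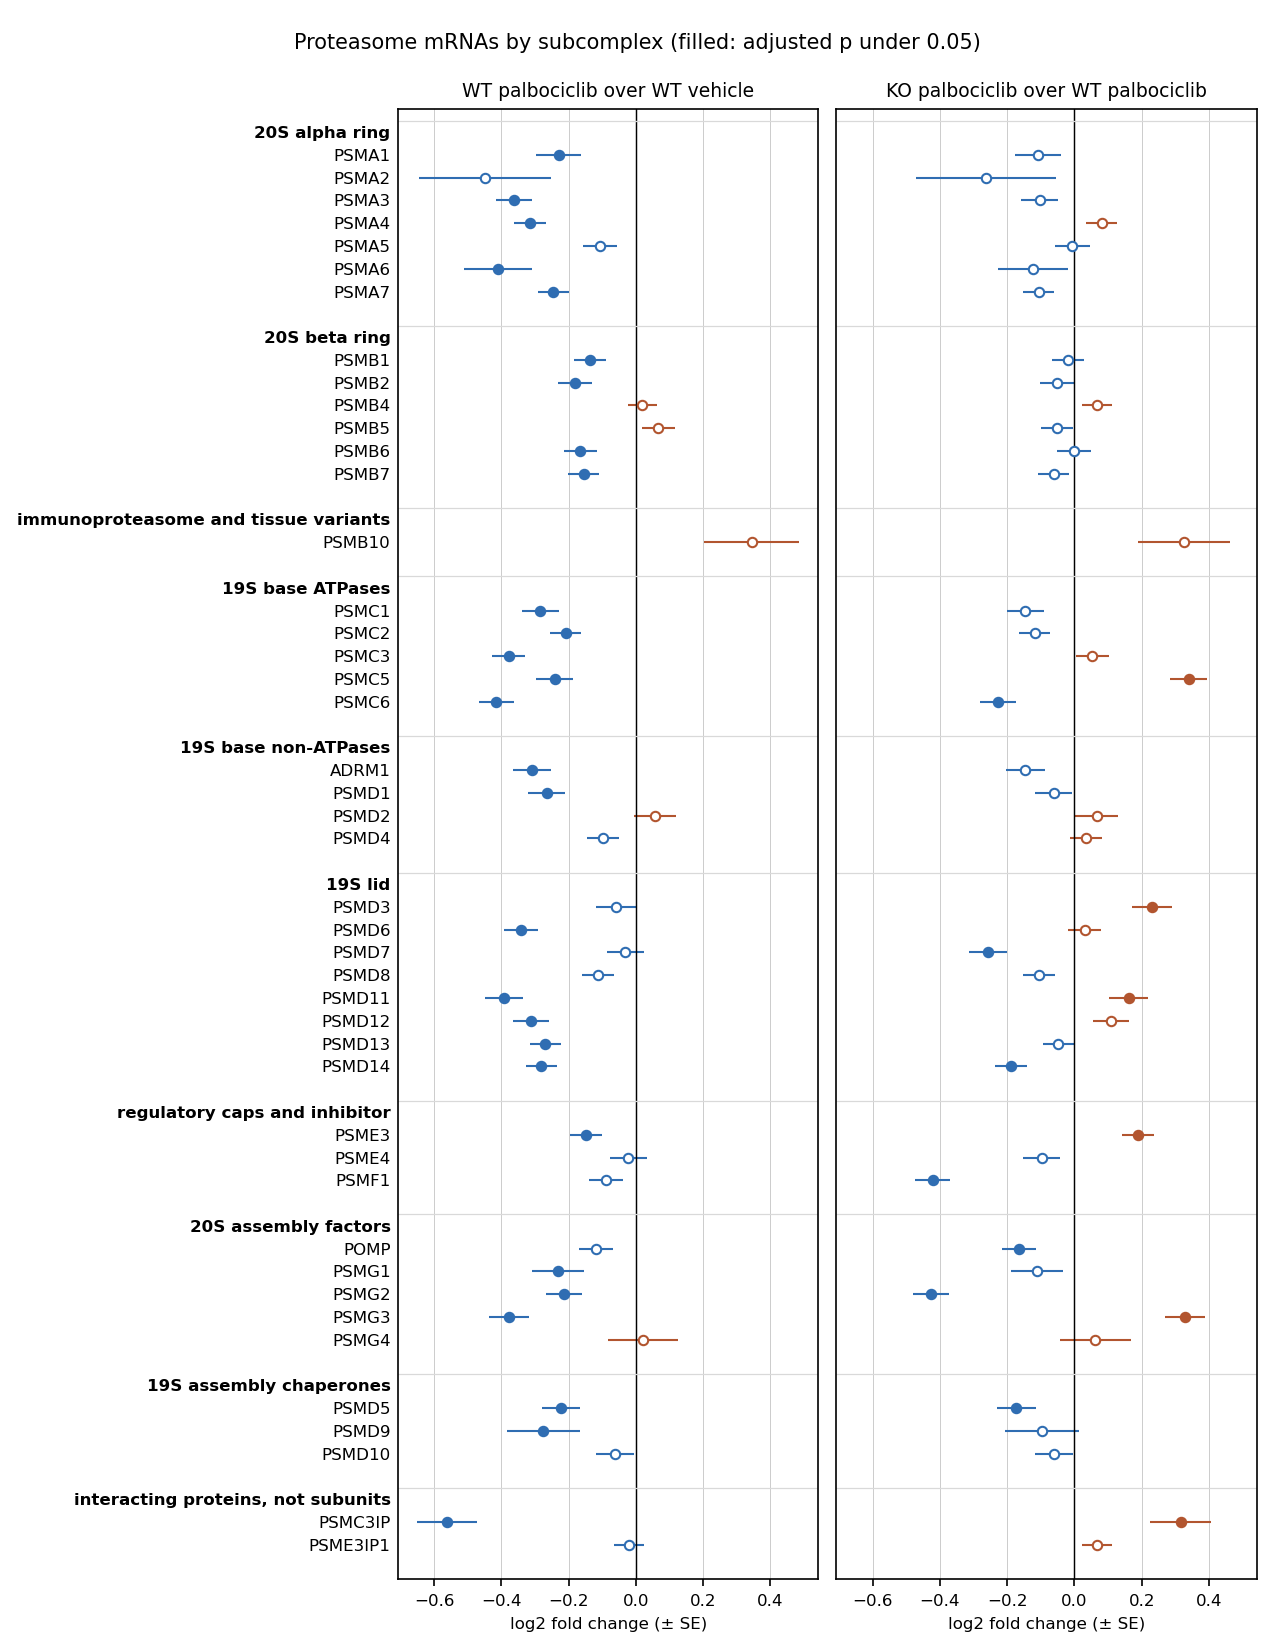
log2 fold change (horizontal axis, ± SE) of the 44 tested proteasome genes by subcomplex, for wild-type palbociclib over vehicle (left) and knockout over wild type on palbociclib (right). Filled points passed an adjusted p of 0.05, blue is negative and red positive; on the left 28 filled points lie below 0 and none above, on the right 7 lie below and 6 above.

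In the alpha ring, whose tails gate the entrance to the core, 5 of 7 genes fell and the median change was −0.32 on the log2 scale. PSMA6 had the largest change of these, with 7.68, 7.02 and 6.33 CPM in knockout, 8.13, 7.68 and 7.11 CPM in wild-type palbociclib and 9.34, 10.2 and 10.9 CPM in vehicle libraries. All wild-type palbociclib libraries were below all vehicle libraries, a log2 fold change of −0.41 ± 0.10 (SE; adjusted p = 0.0025). PSMA4, with a promoter window printed above, had 232.7, 224.2 and 224.0 CPM in knockout, 212.2, 218.1 and 213.7 CPM in wild-type palbociclib and 255.9, 265.6 and 279.8 CPM in vehicle libraries. Its palbociclib libraries of both genotypes were below every vehicle library, and it fell by 0.32 on the log2 scale in wild-type cells (adjusted p = 1.77e-05). PSMA3, at −0.36, PSMA7, at −0.25, and PSMA1, at −0.23, were the other genes of the ring that fell. PSMA5, at −0.11 (adjusted p = 0.0995), and PSMA2, at −0.45 (adjusted p = 0.0728), did not pass; with the set as a block both were called lower (adjusted p = 0.0264 for PSMA5 and 0.0271 for PSMA2). PSMA2 had 36 to 107 reads a library and, like PSMA1, PSMA6, PSMB10 and PSMD9, shares exons with another coding gene ID on its strand, so its count is uncertain.

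The constitutive beta ring, which carries the cutting sites, moved less. Of its 6 tested genes 4 fell, at a median of −0.15 on the log2 scale. The catalytic subunits differed in their calls. PSMB5, the chymotrypsin-like subunit, had 150.8, 155.1 and 151.5 CPM in knockout, 162.9, 160.7 and 150.5 CPM in wild-type palbociclib and 156.2, 151.4 and 144.9 CPM in vehicle libraries. These overlapped in all groups (palbociclib over vehicle 0.07 ± 0.05 log2, SE, adjusted p = 0.274). PSMB6, the caspase-like subunit, had 84.7, 82.5 and 80.8 CPM in knockout, 83.1, 85.0 and 80.2 CPM in wild-type palbociclib and 98.1, 89.6 and 90.6 CPM in vehicle libraries. It fell on palbociclib in wild-type cells (−0.16 ± 0.05, adjusted p = 0.0108), and the knockout libraries lay within the wild-type palbociclib range. PSMB7, the trypsin-like subunit, had 107.0, 108.2 and 102.7 CPM in knockout, 108.4, 115.6 and 107.7 CPM in wild-type palbociclib and 123.6, 122.8 and 122.9 CPM in vehicle libraries. It fell as well (−0.15 ± 0.05, adjusted p = 0.0107), and all palbociclib libraries were below all vehicle libraries. Of the structural members, PSMB2 had the largest called change (−0.18 ± 0.05, adjusted p = 0.00709), with 145.8, 149.0 and 137.6 CPM in knockout, 153.6, 153.5 and 140.7 CPM in wild-type palbociclib and 174.1, 171.7 and 161.7 CPM in vehicle libraries. PSMB1 fell by 0.14 on the log2 scale, and PSMB4 stood at 0.02 (adjusted p = 0.75). PSMB3, the remaining structural gene of the ring, was listed at 0 in every library, as were PSMC4 of the ATPase ring and 2400 of 19921 protein-coding genes. Since both are subunits that every cell uses, these zeros say nothing of the level.

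**Figure D2:**
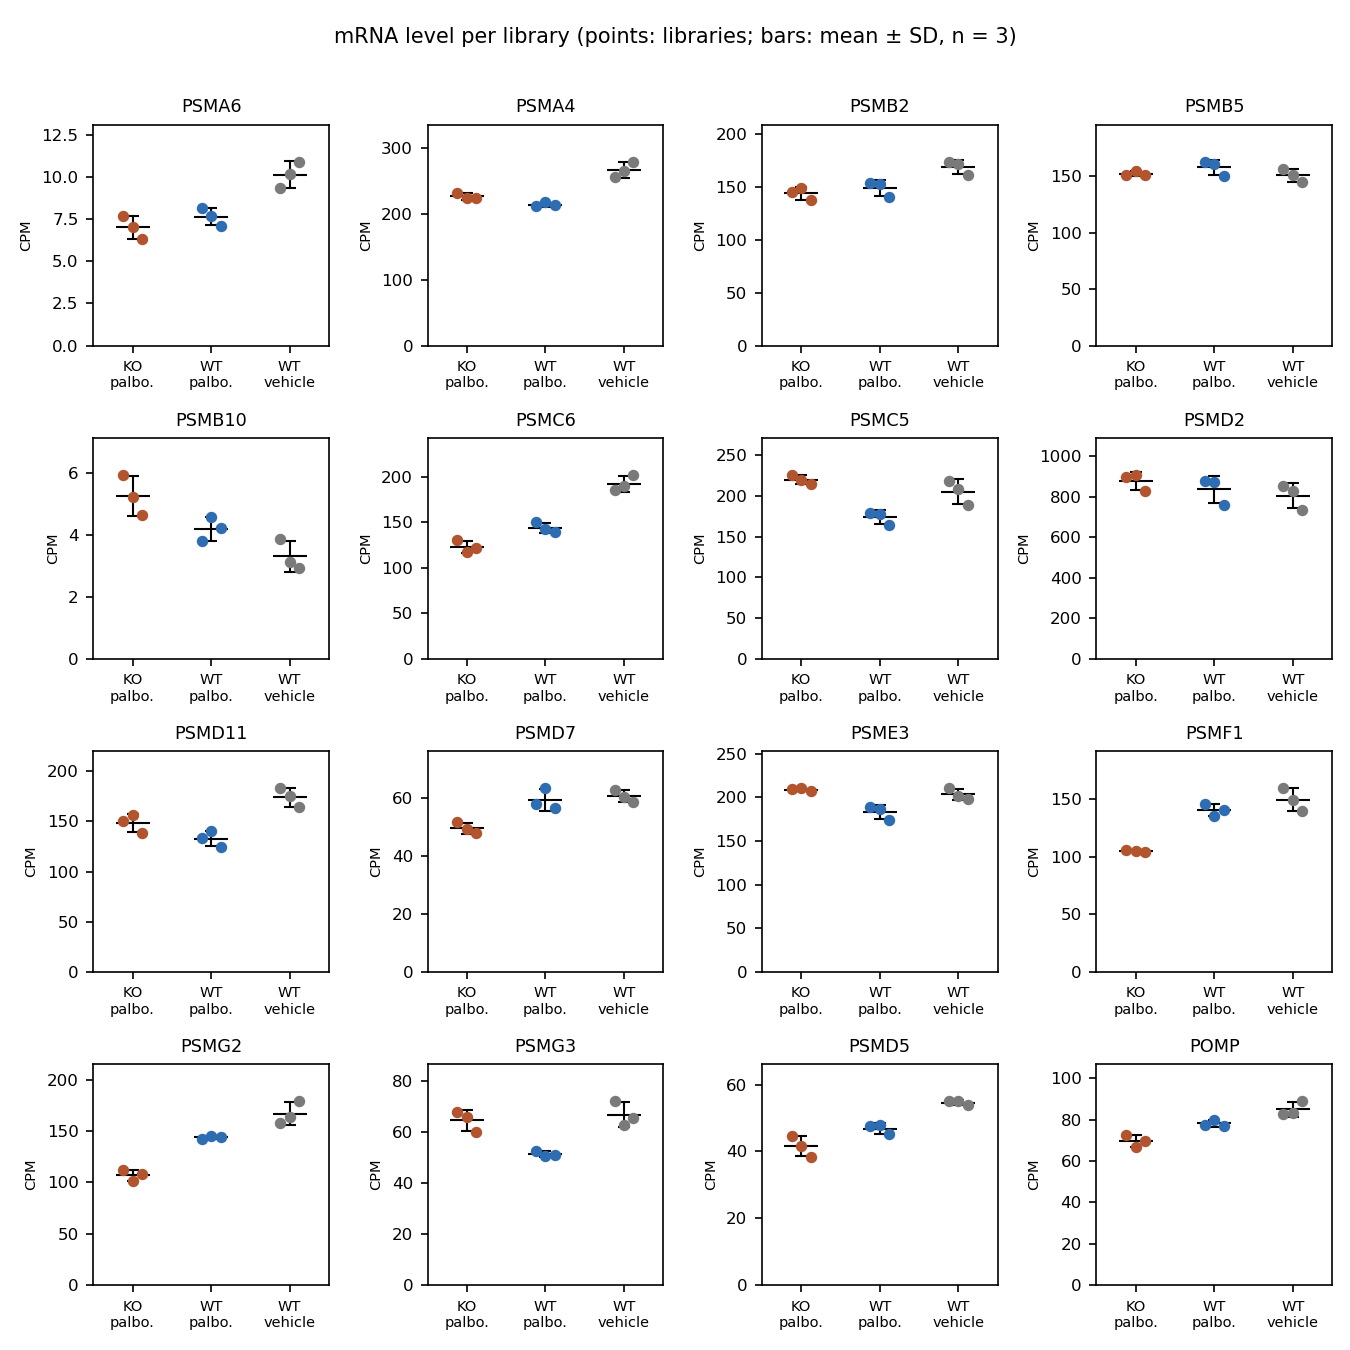
mRNA level (vertical axis, CPM from 0) of 16 proteasome genes in each library, with knockout palbociclib, wild-type palbociclib and wild-type vehicle from left to right; points are libraries and bars the mean ± SD of 3. PSMA4 and PSMC6 lie lower in both palbociclib groups than on vehicle, PSMB5 and PSMD2 overlap in all groups, and PSMF1 and PSMG2 are lowest in the knockout.

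The immunoproteasome genes replace the catalytic subunits in cells exposed to interferon gamma. PSMB8 and PSMB9, and the cap genes PSME1 and PSME2 of the same response, were listed at 0 in every library. PSMA8, the testis variant, and PSMB11, the thymus variant, had at most 1 read a library and were not tested. PSMB10, the counterpart of PSMB7, was measured at 5.94, 5.23 and 4.65 CPM in knockout, 3.80, 4.58 and 4.21 CPM in wild-type palbociclib and 3.87, 3.13 and 2.92 CPM in vehicle libraries. The wild-type groups overlapped in 1 library each, and the difference missed the threshold (0.34 ± 0.14 log2, SE, adjusted p = 0.0567); with the set as a block the adjusted p was 0.022, and with RLE size factors 0.0459. It was the largest positive change among the 44.

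All 5 tested ATPases of the base, the ring that unfolds substrates, fell on palbociclib, with a median of −0.28 and a range of −0.42 to −0.21 on the log2 scale. PSMC6 led, with 130.4, 117.1 and 121.9 CPM in knockout, 150.4, 142.7 and 139.6 CPM in wild-type palbociclib and 185.2, 189.6 and 202.2 CPM in vehicle libraries. The groups did not overlap, and the palbociclib effect in wild-type cells was −0.42 ± 0.05 (SE, adjusted p = 2.36e-06), a decrease of 25.0%. PSMC3 fell by 0.38, PSMC1 by 0.28, PSMC5 by 0.24 and PSMC2 by 0.21. In the GENCODE annotation 75.8% of the PSMC1 exon bases overlap NRDE2 on the other strand. No strand setting for the counts is stated in the sources used here, and the PSMC1 values may include its reads. Smaller overlaps on the other strand bring the same limit to other members. Examples are PSMD7, at 30.7% of exon bases, PSMC3IP, at 29.9% (MLX), PSMC5, at 19.5% (FTSJ3), and PSMG2, at 13.9% (CEP76).

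The 4 other base genes include 2 large scaffolds and 2 ubiquitin receptors, and 1 of each pair fell. ADRM1, a ubiquitin receptor, had 80.2, 84.4 and 80.8 CPM in knockout, 93.6, 91.7 and 86.2 CPM in wild-type palbociclib and 122.5, 110.7 and 102.9 CPM in vehicle libraries. All palbociclib libraries were below all vehicle libraries (−0.31 ± 0.06 log2 in wild-type cells, SE, adjusted p = 0.000209). PSMD1, the large scaffold whose promoter is shown above, fell by 0.26 (adjusted p = 0.000554). PSMD2, the other large scaffold and the member with the most reads, had 896.8, 908.8 and 829.8 CPM in knockout, 878.5, 875.9 and 762.1 CPM in wild-type palbociclib and 852.1, 829.7 and 737.1 CPM in vehicle libraries. Its groups overlapped throughout (0.06 ± 0.06, adjusted p = 0.499), and PSMD4, a second ubiquitin receptor, was not called either (−0.10, adjusted p = 0.102; 0.0399 with the set as a block and 0.027 without vehicle library 3).

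Of the 8 lid genes 5 fell, namely PSMD11 (−0.39), PSMD6 (−0.34), PSMD12 (−0.31), PSMD14 (−0.28) and PSMD13 (−0.27). PSMD14 is the metalloprotease that cuts ubiquitin from the substrate. PSMD11, a scaffold that clamps the lid to the base and core, had 149.9, 156.7 and 138.7 CPM in knockout, 133.7, 140.0 and 124.6 CPM in wild-type palbociclib and 183.2, 175.1 and 164.1 CPM in vehicle libraries. Both palbociclib groups were below vehicle, and the wild-type change was −0.39 ± 0.06 (SE, adjusted p = 1.4e-05). PSMD7, the inactive partner of PSMD14, had a log2 fold change of −0.03 (adjusted p = 0.671), PSMD3 of −0.06 (adjusted p = 0.448) and PSMD8 of −0.11 (adjusted p = 0.0644; 0.0184 with the set as a block).

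Caps and inhibitors that attach in place of the 19S particle gave 1 call among 3 tested genes. PSME3, the nuclear cap PA28 gamma, had 209.1, 210.7 and 207.1 CPM in knockout, 189.5, 186.7 and 174.0 CPM in wild-type palbociclib and 210.5, 201.5 and 198.0 CPM in vehicle libraries. In wild-type cells palbociclib libraries lay below vehicle libraries by 0.15 ± 0.05 on the log2 scale (SE, adjusted p = 0.0154). PSME4, the cap PA200, stood at −0.02 (adjusted p = 0.768) and PSMF1, which binds the core and inhibits it in vitro, at −0.09 (adjusted p = 0.172; 0.0416 without vehicle library 3).

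Of the 5 factors that chaperone core assembly, PSMG3 fell by 0.38, PSMG1 by 0.23 and PSMG2 by 0.21 on the log2 scale. PSMG3 had 67.6, 65.9 and 59.8 CPM in knockout, 52.6, 50.4 and 50.8 CPM in wild-type palbociclib and 72.0, 62.5 and 65.3 CPM in vehicle libraries. Wild-type palbociclib libraries were below both other groups (palbociclib over vehicle −0.38 ± 0.06, SE, adjusted p = 3.36e-05). POMP, which brings beta subunits to the membrane where the core is built, did not pass (−0.12, adjusted p = 0.0616; 0.0292 with the set as a block), and PSMG4, the partner of PSMG3, stood at 0.02 (adjusted p = 0.889). Among the chaperones of the 19S base, PSMD9 fell by 0.27 (adjusted p = 0.0447) and PSMD5 by 0.22 (adjusted p = 0.00327), while PSMD10, known as gankyrin, was at −0.06 (adjusted p = 0.405). PSMD9 had 6.44, 5.92 and 6.07 CPM in knockout, 7.25, 6.28 and 6.21 CPM in wild-type palbociclib and 8.96, 7.42 and 7.46 CPM in vehicle libraries. Its wild-type groups were close but did not overlap, and of the knockout libraries 2 of 3 were below every other library. Of the interacting proteins, PSMC3IP, a factor of meiotic recombination, fell by 0.56 (adjusted p = 3.91e-05) and PSME3IP1, which binds PSME3, stood at −0.02 (adjusted p = 0.735).

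Leaving out wild-type palbociclib library 3 left 20 members lower and 1 higher, and ended the calls of PSMA1, PSMB1, PSMB2, PSMB6, PSMB7, PSME3, PSMG1 and PSMD9, at adjusted p-values of 0.0639 to 0.208; PSMB5 was then the member called higher (adjusted p = 0.0476). PSMB1, PSME3 and PSMD9 also lost their calls when only the 6 libraries compared were fitted and without the low-count filter. The same held when any 1 knockout library was left out (adjusted p of 0.0615 to 0.0954). PSMB1 and PSMD9 lost them with RLE size factors (adjusted p of 0.0538 and 0.0604) and DESeq2 (0.0521 and 0.0862) too. PSMB1 kept its call without vehicle library 1 but without no other single library. PSMB6 lost its call without vehicle library 1 (adjusted p = 0.0622), PSMB7 without the low-count filter (adjusted p = 0.0503), and PSMG1 without vehicle library 2 (adjusted p = 0.054).

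**Figure D3:**
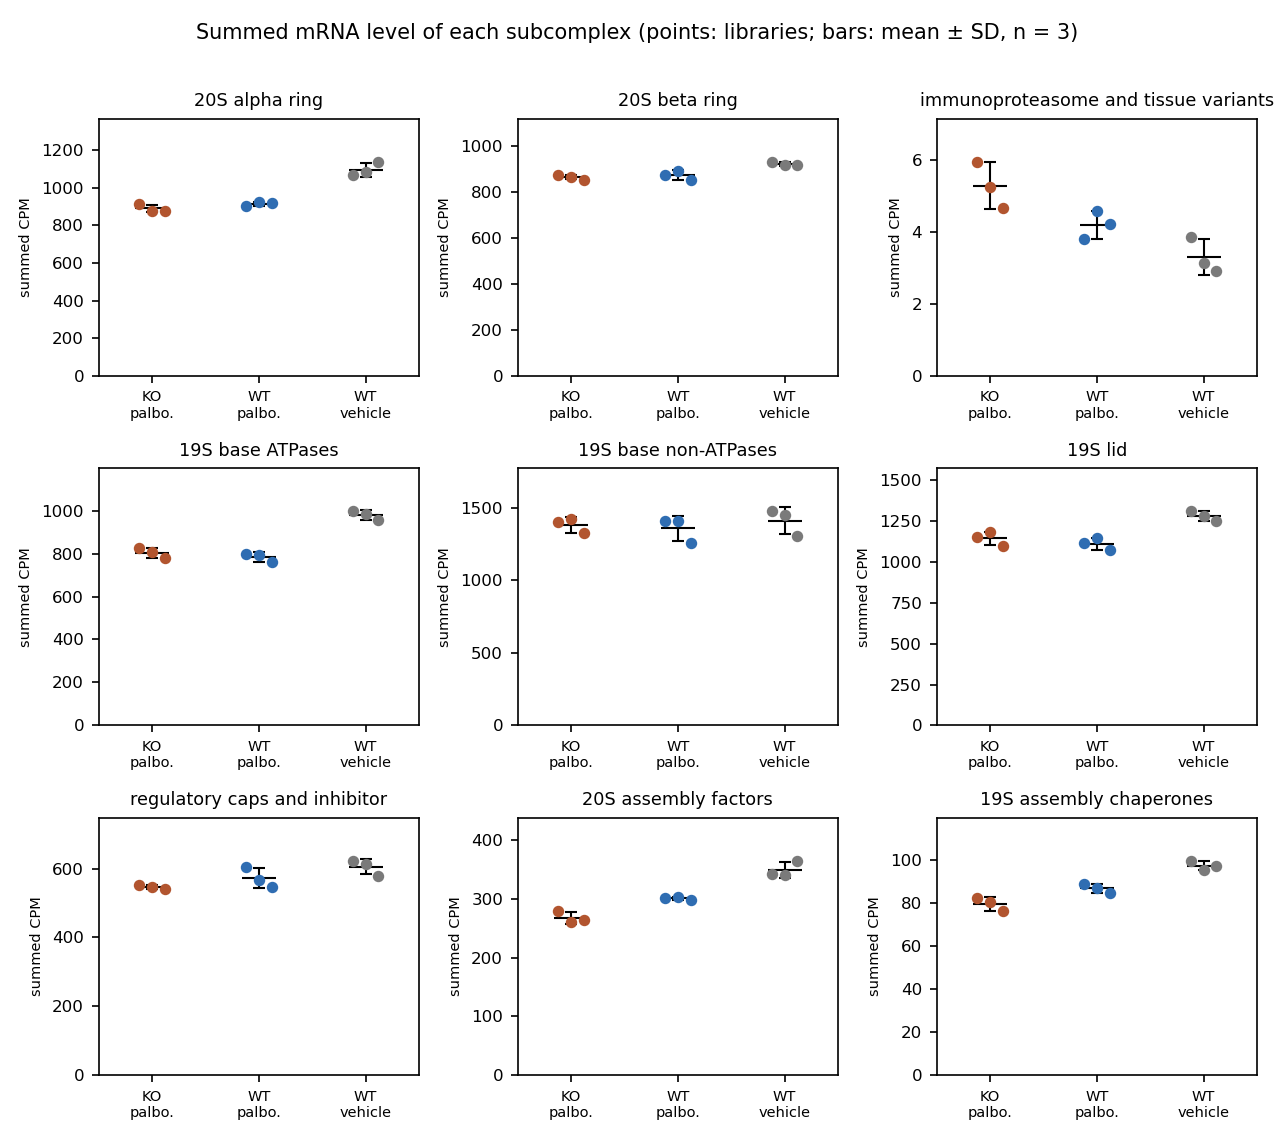
Summed mRNA level (vertical axis, CPM from 0) of each subcomplex in each library, with knockout palbociclib, wild-type palbociclib and wild-type vehicle from left to right; points are libraries and bars the mean ± SD of 3. The alpha ring, constitutive beta ring, ATPases, lid and both assembly groups lie lower in the palbociclib groups than on vehicle without overlap. The base non-ATPases overlap, as do the caps and inhibitor in wild-type cells.

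Summed levels put the subcomplexes side by side. The alpha ring totalled 889.8 ± 20.7 CPM in knockout, 915.2 ± 10.8 CPM in wild-type palbociclib and 1095 ± 38.9 CPM in vehicle cells, and the ATPases 803.5 ± 23.5, 784.8 ± 22.4 and 979.4 ± 21.6 CPM in the same groups (SD, n = 3 each). In wild-type cells these sums were lower by 16.4% and 19.9% on palbociclib, against 5.4% for the constitutive beta ring and 13.1% for the lid. The sum of the other base genes was 1382 ± 52.4 CPM in knockout, 1358 ± 87.3 CPM in wild-type palbociclib and 1411 ± 93.7 CPM in vehicle cells; PSMD2 makes up more than any other gene of it, and its libraries overlap. Per kilobase of transcript, the highest levels in wild-type palbociclib cells were 327.1 CPM per kb for PSMA7, 243.2 for PSMD2 and 206.5 for PSMB4. Assembly factors on that scale ran from 2.36 CPM per kb for PSMD9 to 58.9 for POMP and 85.3 for PSMG2. Some subunits lay in that range, such as PSMD12, at 25.3, and PSMC2, at 45.7. PSMA6, at 7.43, PSMC1, at 12.7, and PSMA1, at 17.6, did too, but their exons overlap other gene IDs and their levels are uncertain. Other genes of the same rings stood higher, such as PSMA3, at 163.2, and PSMC3, at 171.3.

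Knockout against wild type on palbociclib asks whether loss of PERK altered these transcripts in drug-treated cells. Members moved in both directions and about as often as other genes: 6 of 44 rose and 7 fell, or 13.6% and 15.9%, against 14.9% higher and 13.0% lower among all 19408 genes, or 27.9% in either direction (edgeR, adjusted p under 0.05). Every knockout library lay above every wild-type palbociclib library in 10 of 44 members, against 21.8% of all genes, and below in 13, against 19.5%. The shares called in this model are near the background and are no result about the members as a group. The share of members lying below exceeded its background, as did the share lower with the set as a block, given below. The shares lying above, or higher in the block model, were near theirs. These differences were not tested. The members had a median of −0.06 on the log2 scale, against 0.01 for all genes; it was −0.036, −0.035 and −0.10 without wild-type palbociclib library 1, 2 or 3. None of the 7 alpha and 6 constitutive beta genes tested was called, and the total over the 52 genes was 6197, 6153 and 5926 CPM in knockout libraries against 6200, 6232 and 5897 CPM in wild-type palbociclib libraries, which overlap. Of the 13 calls, 12 were in the base, the lid, the caps and inhibitors and the assembly factors, and the other was PSMC3IP. With the set as a block 20 members were called, 8 higher and 12 lower, against 19.5% higher and 16.9% lower among all genes in that model, the added ones being PSMA7, PSMB10, PSMC1, PSMC2, ADRM1, PSMD8 and PSMD12.

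The genes that rose were PSMC5, PSMG3, PSMC3IP, PSMD3, PSME3 and PSMD11. PSMC5, an ATPase, had 225.7, 219.3 and 214.3 CPM in knockout, 179.2, 178.3 and 163.6 CPM in wild-type palbociclib and 218.4, 208.2 and 189.1 CPM in vehicle libraries. Knockout libraries were all above wild-type palbociclib libraries, by 0.34 ± 0.06 on the log2 scale (SE, adjusted p = 9.19e-05), and overlapped the vehicle libraries. PSMG3 rose by 0.33 ± 0.06 (adjusted p = 0.000286) and PSME3 by 0.19 ± 0.05 (adjusted p = 0.00521); in the values given above the knockout libraries of both overlap the vehicle range. PSMD3, a lid scaffold, had 344.6, 357.9 and 324.6 CPM in knockout against 298.1, 301.8 and 275.8 CPM in wild-type palbociclib and 329.5, 305.0 and 277.9 CPM in vehicle libraries (0.23 ± 0.06, adjusted p = 0.00624). PSMD11 rose by 0.16 (adjusted p = 0.041) though its groups overlap, and PSMC3IP by 0.32 (adjusted p = 0.0124).

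Genes that fell were PSMG2, PSMF1, PSMD7, PSMC6, PSMD14, PSMD5 and POMP. PSMG2, which binds alpha subunits as a pair with PSMG1, had 111.7, 101.0 and 108.3 CPM in knockout, 142.0, 145.1 and 144.5 CPM in wild-type palbociclib and 157.9, 163.6 and 179.0 CPM in vehicle libraries. The 3 groups were separate, and the knockout lay 0.43 ± 0.05 below wild type on palbociclib on the log2 scale (SE, adjusted p = 3.99e-06). Its partner PSMG1 was at −0.11 (adjusted p = 0.314). PSMF1 had 106.0, 104.9 and 104.3 CPM in knockout, 146.1, 135.8 and 140.4 CPM in wild-type palbociclib and 159.9, 149.3 and 140.0 CPM in vehicle libraries. Knockout libraries were low, by 25.3%, while the wild-type groups overlapped (−0.42 ± 0.05, adjusted p = 3.25e-06). PSMD7 showed the same order, with 51.5, 49.3 and 47.7 CPM in knockout, 57.8, 63.3 and 56.3 CPM in wild-type palbociclib and 62.6, 60.3 and 58.4 CPM in vehicle libraries (−0.26 ± 0.06, adjusted p = 0.00144). PSMC6 was lower still in the knockout than in wild-type palbociclib cells, by 0.23 ± 0.05 (adjusted p = 0.00263), and PSMD14, the ubiquitin-cutting lid subunit, by 0.19 (adjusted p = 0.00427). PSMD5 had 44.6, 41.7 and 38.4 CPM in knockout, 47.5, 47.9 and 45.1 CPM in wild-type palbociclib and 55.0, 55.0 and 53.8 CPM in vehicle libraries, and it fell by 0.17 ± 0.06 in the knockout (adjusted p = 0.0285). POMP fell by 0.16, with 69.8 ± 2.94 CPM in knockout against 78.3 ± 1.56 CPM in wild-type palbociclib cells (SD, n = 3 each, adjusted p = 0.0175).

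Leaving out wild-type palbociclib library 3 left 3 higher and 11 lower, and leaving out knockout library 2 left 3 higher and 8 lower. PSMD11, PSMC3IP, PSMD5 and POMP each lost the call without 1 library or another (adjusted p of 0.051 to 0.285), PSMD11 also with RLE size factors (adjusted p = 0.074), PSMD3 without knockout library 2 (adjusted p = 0.0696) and PSME3 without wild-type palbociclib library 3 (adjusted p = 0.0531).

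Position along the genome moved with this comparison. For each tested member, the median log2 fold change of all other tested genes within 5 Mb on either side was computed, members left out. Over the 44 members that neighbourhood median and the member's own change gave Pearson r = 0.777 for knockout against wild type on palbociclib, and 0.122 for palbociclib against vehicle. The points share libraries, and windows on 1 chromosome overlap, so these are descriptions. Neighbourhood medians ran from −0.586 to 0.315 in the knockout comparison, and from −0.105 to 0.163 in the palbociclib comparison.

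PSMF1, on chromosome 20, had a neighbourhood at −0.59, and PSMG2, on chromosome 18, at −0.49, each close to or beyond the gene's own change. Of 7 tested members on chromosome 17, 5 rose in the knockout: PSMC5, PSMD3, PSMD11, PSME3 and PSMC3IP. Their neighbourhoods stood at 0.20 to 0.32, as did that of PSMD12, while that of PSMB6, on the other arm, stood at 0.01 and PSMB6 itself was not called (adjusted p = 0.986). PSMG3, on chromosome 7, had a neighbourhood at 0.23. Thus PSMF1, PSMG2 and all 6 members that rose lay in stretches whose median gene differed with the same sign between knockout and wild-type cells. The remaining genes that fell had neighbourhoods nearer 0, at −0.14 for PSMD7, −0.08 for PSMD14, −0.05 for PSMC6, −0.04 for PSMD5 and −0.01 for POMP. Subtracting the neighbourhood median reduced the SD of the 44 changes to 0.115, against 0.177 before, and left PSMC6 at −0.18, POMP at −0.15, PSMC5 at 0.14 and PSMF1 at 0.16. In the palbociclib comparison the same step left the SD at 0.171, against 0.168 before, and the median at −0.175. The part of the neighbourhoods in the calls was not tested, and with no vehicle-treated knockout cells analysed here a difference of the derivative line and an effect of PERK loss cannot be told apart.

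**Figure D4:**
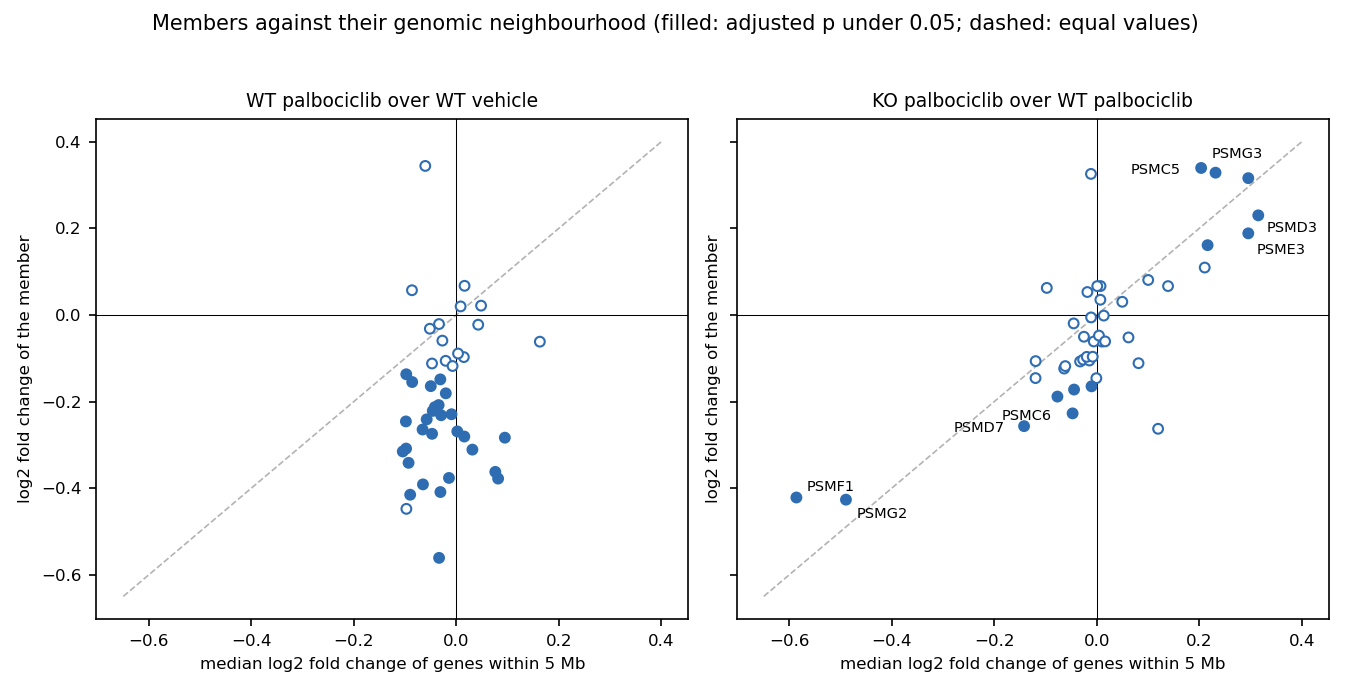
log2 fold change of each of the 44 tested members (vertical axis) against the median log2 fold change of other genes within 5 Mb (horizontal axis), for wild-type palbociclib over vehicle (left) and knockout over wild type on palbociclib (right); filled points passed an adjusted p of 0.05 and the dashed line marks equal values. On the left 39 of the 44 points lie below 0, over a narrow range of neighbourhoods, and on the right they follow the dashed line from PSMF1 and PSMG2 to PSMC5 and PSMD3 (r = 0.777).

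Knockout cells on palbociclib were also set against wild-type cells on vehicle, a comparison that shares its libraries with both others. There 30 of 44 members fell and 2 rose, against 26.0% lower, 25.7% higher and 51.7% in either direction among all genes (edgeR), the median being −0.24. All knockout libraries lay below all vehicle libraries in 32 members, against 29.7% of all genes, and above them in 3, against 28.8%. After PSMA2 (−0.71, at 36 to 107 reads a library), the largest decreases were those of PSMC6, at −0.64 ± 0.05 (SE, adjusted p = 3.92e-09), and PSMG2, at −0.64 ± 0.05 (adjusted p = 5.07e-09). PSMB10 rose by 0.67 ± 0.14 (adjusted p = 0.000401), each knockout library lying above each vehicle library, and PSMD3 by 0.17 ± 0.06 (adjusted p = 0.0211). PSMD3 lost its call without vehicle library 2, vehicle library 3 or knockout library 2 (adjusted p of 0.0534 to 0.119), which left PSMB10 as the only one higher. PSMC5, PSMG3 and PSME3, lower on palbociclib in wild-type cells and higher in the knockout, were at 0.10, −0.05 and 0.04 here and were not called. PSMC5 was called higher with the set as a block (adjusted p = 0.026) and without vehicle library 1 (adjusted p = 0.0413). PSMD2, at 0.12 (adjusted p = 0.113), was called higher with the set as a block (adjusted p = 0.00296), with no low-count filter, and without library 3 of the knockout or of wild-type palbociclib cells (adjusted p of 0.0379 to 0.0484). In the block model 33 members fell and 4 rose, against 28.9% lower and 28.6% higher among all genes.

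Genes that work with the proteasome were read from 4 lists that the symbol rule does not reach. The first holds 18 genes of shuttles, deubiquitinases, import factors and SEM1, a small lid subunit whose symbol the rule misses and which was not called (0.05 on palbociclib, 0.03 in the knockout). On palbociclib 7 of these fell and 1 rose, or 38.9% and 5.56%, against 22.3% lower and 21.3% higher among all genes, with a median of −0.10. In the knockout 8 fell and 2 rose, or 44.4% and 11.1%, against 13.0% lower and 14.9% higher, with a median of −0.07. Of those that fell, USP14 (−0.28) and ECPAS (−0.16) had neighbourhoods at −0.25 and −0.15. Those of AKIRIN2 (−0.29), ZFAND5 (−0.16), UBE3C (−0.15) and UBQLN1 (−0.15) stood at −0.04, −0.002, −0.07 and 0.10. TXNL1 and RAD23B follow. The part of the neighbourhoods in these calls was not tested. TXNL1, a thioredoxin-like protein bound to the 19S particle, had 63.2, 60.7 and 63.5 CPM in knockout, 77.7, 77.5 and 79.6 CPM in wild-type palbociclib and 97.6, 99.0 and 107.3 CPM in vehicle libraries. The groups were separate in both steps (palbociclib over vehicle −0.37 ± 0.05, adjusted p = 4.15e-06; knockout over wild type −0.32 ± 0.05, SE, adjusted p = 4.81e-05). It lies on chromosome 18 in a neighbourhood at −0.35 in the knockout comparison. RAD23B, which carries ubiquitylated proteins to the proteasome, had 190.7, 196.1 and 191.0 CPM in knockout, 267.4, 270.9 and 254.7 CPM in wild-type palbociclib and 306.0, 305.8 and 303.1 CPM in vehicle libraries. Its knockout change of −0.46 ± 0.05 (adjusted p = 1.91e-07) compared with a neighbourhood at −0.15. IPO9, an importin, fell on palbociclib in wild-type cells (−0.34 ± 0.05, adjusted p = 1.73e-05) and had 201.2 ± 6.98 CPM in knockout against 199.3 ± 11.6 CPM in wild-type palbociclib cells (SD, n = 3 each).

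The second list is the NFE2L1 route that sets proteasome gene transcription, with 12 genes. On palbociclib 5 of the 12 rose, none fell and 7 were not called, against 21.3% higher and 22.3% lower among all genes; the median of the list was 0.07 on the log2 scale. NFE2L1 itself had 424.1, 457.1 and 424.6 CPM in knockout, 400.6, 400.0 and 373.6 CPM in wild-type palbociclib and 345.8, 344.0 and 324.5 CPM in vehicle libraries. Palbociclib libraries were above vehicle by 0.21 ± 0.05 (SE, adjusted p = 0.00188), and knockout above wild type on palbociclib by 0.15 ± 0.05 (adjusted p = 0.0264), beside a neighbourhood on chromosome 17 at 0.33. The second of these calls was lost with RLE size factors (adjusted p = 0.0548) and without wild-type palbociclib library 2 or 3 or any 1 knockout library (adjusted p of 0.0501 to 0.226). MAFK, a small partner of NFE2L1 on DNA, had 205.1, 223.8 and 221.3 CPM in knockout, 190.4, 195.1 and 211.7 CPM in wild-type palbociclib and 144.7, 124.8 and 120.7 CPM in vehicle libraries. It rose by 0.61 ± 0.06 on palbociclib (adjusted p = 3.58e-07). MAFF, another small partner, had 8.30, 9.27 and 8.82 CPM in knockout, 14.7, 16.6 and 16.6 CPM in wild-type palbociclib and 12.9, 12.1 and 12.1 CPM in vehicle libraries. It rose on palbociclib by 0.37 ± 0.08 (adjusted p = 0.000957) and was lower in the knockout by 0.86 ± 0.08 (adjusted p = 1.52e-07), in a neighbourhood at 0.05. VCP and SEL1L, which act in drawing NFE2L1 out of the endoplasmic reticulum membrane, each rose by 0.16 on palbociclib.

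DDI2 and NGLY1 process the NFE2L1 protein to its active form. DDI2, a protease, had 27.5, 28.0 and 26.8 CPM in knockout, 34.8, 35.9 and 33.2 CPM in wild-type palbociclib and 38.0, 39.8 and 33.4 CPM in vehicle libraries. It was low in the knockout (−0.34 ± 0.07, SE, adjusted p = 0.000567) and not called on palbociclib (−0.10, adjusted p = 0.222). NGLY1, a glycanase, had 50.4 ± 0.31 CPM in knockout, 47.8 ± 0.33 CPM in wild-type palbociclib and 47.6 ± 0.85 CPM in vehicle cells and was called in neither step. NFE2L2, the related factor of the oxidative stress response, had 84.7 ± 2.22 CPM in knockout, 98.1 ± 4.01 CPM in wild-type palbociclib and 95.4 ± 2.22 CPM in vehicle cells (SD, n = 3 each). It fell by 0.21 ± 0.05 in the knockout (adjusted p = 0.00233). Over the list in that comparison, 3 genes fell (NFE2L2, DDI2 and MAFF) and 2 rose (NFE2L1 and SEL1L), against 13.0% lower and 14.9% higher among all genes, with a median of −0.01. SEL1L, on chromosome 14, rose by 0.27 in a neighbourhood at 0.32. The neighbourhoods of NFE2L2 and DDI2 stood at −0.009 and −0.09.

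**Figure D5:**
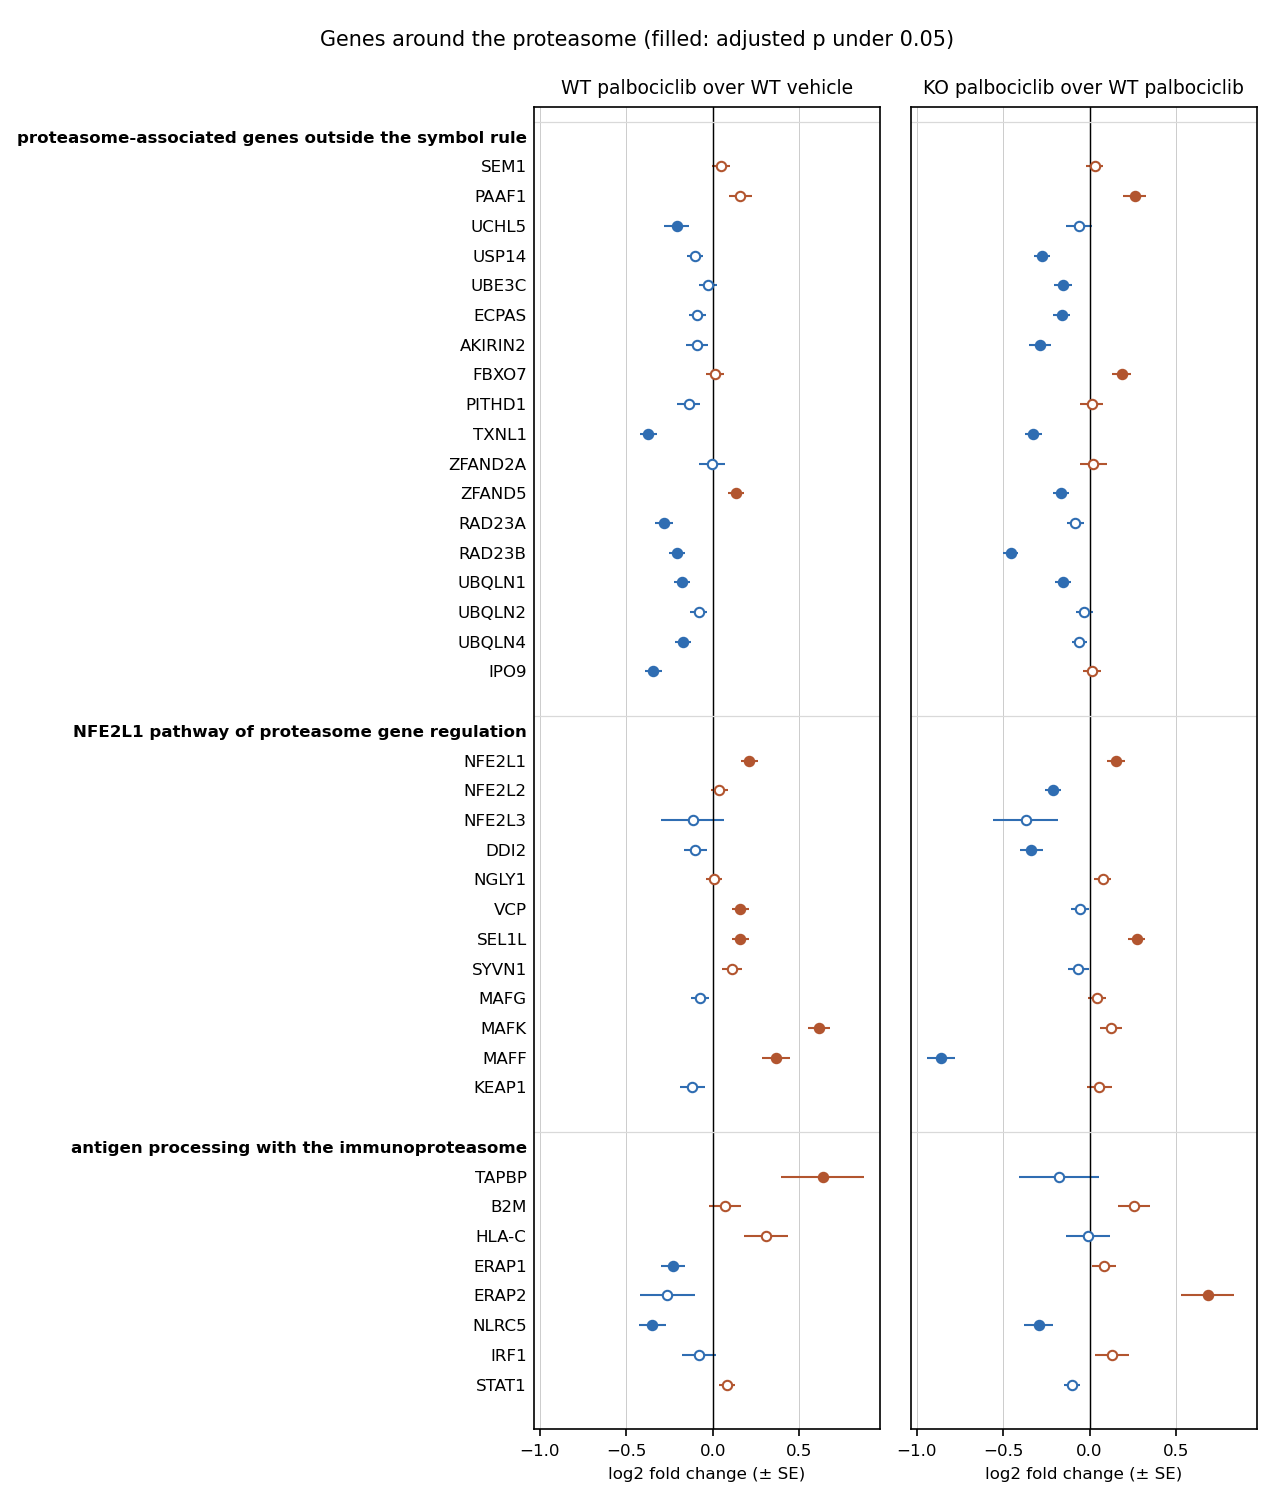
log2 fold change (horizontal axis, ± SE) of tested genes in 3 of the 4 lists around the proteasome (associated genes, the NFE2L1 route and antigen processing), for wild-type palbociclib over vehicle (left) and knockout over wild type on palbociclib (right); filled points passed an adjusted p of 0.05, blue is negative and red positive. In the NFE2L1 list 5 filled points lie above 0 on the left, and MAFF, at −0.86, lies farthest below 0 on the right.

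Ubiquitin and its activating enzymes form the third list, given here by 3 of its genes. On palbociclib UBA1, the main activating enzyme, rose by 0.24 ± 0.05 (SE, adjusted p = 0.000376), with 586.9, 625.4 and 630.1 CPM in knockout, 637.7, 630.6 and 637.6 CPM in wild-type palbociclib and 548.8, 549.2 and 513.7 CPM in vehicle libraries. In the knockout RPS27A, a fusion of ubiquitin to a ribosomal protein, rose by 0.20 ± 0.06 (adjusted p = 0.0136). It lost that call without wild-type palbociclib library 1 or 2 or knockout library 1 or 3 (adjusted p of 0.0513 to 0.0853). The polyubiquitin gene UBB stood at 0.07 in the knockout and was not called (adjusted p = 0.346).

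The last list, antigen processing alongside the immunoproteasome, has 12 genes, 8 of them tested. Of the others, TAP1, TAP2 and HLA-B were near or at 0. NLRC5, a transactivator of class I genes, had 9.44, 9.68 and 9.20 CPM in knockout, 11.1, 12.5 and 11.1 CPM in wild-type palbociclib and 14.5, 15.2 and 14.5 CPM in vehicle libraries. The groups were separate, and it fell in both steps (palbociclib −0.35 ± 0.08, adjusted p = 0.0014; knockout −0.30 ± 0.08, SE, adjusted p = 0.0106). ERAP1, a peptide trimmer, fell on palbociclib (−0.23, adjusted p = 0.00853), and its relative ERAP2 rose in the knockout (0.68 ± 0.16, adjusted p = 0.00221). TAPBP was called higher on palbociclib (0.64 ± 0.24, adjusted p = 0.0382) at 25 to 54 reads a library, with groups that overlap. That call was lost with DESeq2 (adjusted p = 0.0616) and when vehicle library 2, or library 1 or 2 of wild-type palbociclib, was left out (adjusted p of 0.0982 to 0.187), and the knockout call of NLRC5 without wild-type palbociclib library 2 (adjusted p = 0.073).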

How the data were processed

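Poly(A) RNA of 9 U2OS libraries was sequenced. The deposited values are unnormalized read counts, 1 column a library. STAR 2.7.9a, Trim Galore, FastQC, CASAVA, DESeq2 and the build hg38 are named, per the submitters' processing notes, with no role given; the read counter, its annotation and strand setting are not stated there. Groups came from the genotype and treatment labels. Positions came from GENCODE 29, matched for 58261 of 70116 IDs. Symbols came from a separate list of gene names, which covered 62700 IDs. Of all counts, 0.104 to 0.116% fell on IDs that have no symbol.

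Counts were tested with edgeR 4.0.16 (limma 3.58.1, R 4.3.3; figures with Python 3.11.15 and matplotlib 3.10.9) by the quasi-likelihood F test with robust fitting, TMM factors of 0.977 to 1.01 and the default filter on groups. After it 19408 genes with 99.91% of counts remained. The 3 groups were fitted together over the 9 libraries (residual degrees of freedom 6), and p-values were adjusted by Benjamini-Hochberg over all tested genes, with a threshold of 0.05. The biological coefficient of variation was 5.99%. The fit was tested on simulated data. CPM are scaled by TMM factors. Levels per kb use the longest APPRIS principal transcript. No libraries of a group were as alike as sampling noise would make them (chi-square over its degrees of freedom 3.73 to 12).

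The labels use the same set numbers in every group. Deviations of libraries from their group's mean correlated at 0.175 to 0.539 in all 9 pairs of the same set and at −0.401 to 0.07 between sets over 12907 genes, so the sets pair the libraries; the model with the set as a block is an alternative. Other alternatives were RLE factors, no low-count filter, DESeq2 1.42.0, limma-voom, the 6 libraries compared alone, and each library left out.

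Members and lists were chosen with earlier results of these data known. Named by rule were the catalytic subunits and their immunoproteasome counterparts, NFE2L1, NFE2L2, DDI2, NGLY1, and EIF2AK3. To these were added, in each direct comparison, the called gene of each subcomplex with the largest change and the 2 of each list, at a mean of at least 1 CPM. Other genes with values were chosen after their values were seen. Some items are not reported here.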

Additional observations from a re-analysis of the deposited data

How the results depend on the processing

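Palbociclib against vehicle in wild-type cells called 24 to 34 members under the alternatives that kept all libraries of the comparison, 34 of them with the set as a block, against 28 in the model reported, and 21 to 29 with 1 library left out. Its median log2 fold change of −0.22 was −0.19 with only the 6 libraries compared and −0.22 to −0.15 with 1 library left out. Knockout against wild type on palbociclib called 13 members, 20 with the replicate block and 10 to 16 with 1 library left out; its median of −0.06 was −0.068 with RLE factors and −0.069 with DESeq2, and −0.10 to −0.035 with 1 library left out. The comparison of knockout cells on palbociclib with wild-type cells on vehicle called 32 members, 37 with the replicate block and 30 to 33 with 1 library left out, and its median of −0.24 was −0.27 to −0.20. No median and no called value changed sign; values near 0 that were not called did, such as those of RPS27A and NGLY1 on palbociclib without vehicle library 1. Single-gene values were tallied for the genes named by rule only. Of these values under the alternatives, 1412 kept their side of the threshold, 54 lost the call and 19 gained it. Members outside that tally, such as PSMB1, PSMC1 and PSMD8, also lost or gained calls. The causes were not tested. Depth limits genes with few reads, such as PSMA2, PSMB10, TAPBP and ERAP2, and of the members at 0 or at most 1 read a library nothing can be said.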
